A study of Homo sapiens with 108 samples.

Results

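Colo679, an established human melanoma cell line, was profiled 1 h after irradiation with 2 Gy, given as carbon ions in one set of arrays and as X-rays in another, and each set has its own unirradiated cells. The arrays were chosen by their titles, and they are 12 of the 108 arrays of a study of 6 melanoma lines. They form 4 groups of 3 arrays: unirradiated cells of the carbon-ion set (0 Gy), cells 1 h after 2 Gy of carbon ions, unirradiated cells of the X-ray set (0 Gy), and cells 1 h after 2 Gy of X-rays. No drug, transgene or other agent is named for any of the 4 groups, and the labels give neither a time for the unirradiated cells nor the culture behind each array. The p-values therefore measure the spread between these arrays, which may be technical.

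Total RNA carried a biotin label and was read on arrays in 1 colour, so a level is the brightness of a probe and not a count of molecules. Values are given on the normalised log2 intensity scale, on which a difference of 1 is a doubling, and a zero is close to the brightness of the middle probe of an array. Replicate arrays correlated with r between 0.985 and 0.997 across probes. Missing values numbered 2636 to 5038 per array. Melanocyte genes marked the cells as labelled: 11 of 11 measured markers lay above the filter on low levels, with PMEL at 9.17, MLANA at 8.99 and TYR at 8.90 as means of the 12 arrays and SOX10 lowest at -0.34. Of the markers of other cell types, 7 of 8 fibroblast genes, 1 of 6 keratinocyte genes, 3 of 8 leukocyte genes and 3 of 6 endothelial genes passed the same filter. The highest of each list were FAP at 5.39 (fibroblast), KRT14 at 0.76, CD68 at 1.41 (leukocyte) and PECAM1 at 3.41 (endothelial). KRT5 lay at -1.54 and PTPRC at -0.81. The list medians were 6.19 for melanocyte, 0.92 for fibroblast, -1.18 for keratinocyte, -0.64 for leukocyte and -0.47 for endothelial genes. No gene of any of these lists passed at 1 h after either beam. After X-rays all 11 melanocyte genes were below 0 (median -0.13, beside -0.03 over all genes; 4 at an unadjusted p under 0.05), and the medians after carbon ions were 0.02 and 0.03. Of all 13582 tested genes, 1969 were at an unadjusted p under 0.05 after X-rays, in either direction.

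Ionising radiation breaks DNA, and the kinase ATM then signals both to p53, which switches on genes that stop the cell cycle, and to NF-kB, which is held in the cytoplasm by inhibitors such as the product of NFKBIA until they are degraded. In many melanomas the RAS, RAF, MEK and ERK kinase cascade is active, and ERK induces its own brakes, the DUSP phosphatases and the Sprouty proteins. Many of these messages are short-lived, so that their levels can move within an hour. Carbon ions deposit energy more densely along their tracks than X-rays do.

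The early response was small after both beams, and 9 genes were called after both. RGS16 and NFKBIA rose about 1.8- to 2.2-fold after each beam, and HES1, DUSP5, CCN1, DUSP6, TRIB1, NEAT1 and PILRA fell by 0.52 to 1.13 on the log2 scale. After carbon ions, 482 of 32283 probes tested passed an adjusted p of 0.05 in limma (1.49%), of which 128 were higher (0.396%) and 354 lower (1.1%); rises made up 26.6% of these calls, and 12.2% of those made from the values as deposited. After X-rays, 142 passed (0.44%), of which 52 were higher (0.161%) and 90 lower (0.279%). With each gene represented by its brightest tested probe, 102 of 13582 genes passed after carbon ions (0.751%; 47 higher, 0.346%, and 55 lower, 0.405%) and 40 after X-rays (0.295%; 12 higher, 0.0884%, and 28 lower, 0.206%). Past 1.5-fold were 23 of the 102 genes called after carbon ions and 21 of the 40 called after X-rays, and past 2-fold 2 and 3.

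These counts depended on single arrays. The carbon-ion count was 68 without carbon-ion 1 h array 2, 147 without carbon-ion control array 1 and 142 without carbon-ion control array 2. It was 278 without carbon-ion 1 h array 3 and 275 without X-ray control array 2. X-ray 1 h array 1 worked the other way, since without it the X-ray count rose from 142 to 1367 probes. Without any other single array of the X-ray set the X-ray count was 52 to 67, and it was 92 without carbon-ion control array 2 and 89 without carbon-ion 1 h array 2.

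Both beams called 56 probes, 13 higher (0.0403% of those tested) and 43 lower (0.133%), and none in opposite directions. The shared rises were 10.2% of the carbon-ion rises and 25% of the X-ray rises, and the shared falls were 12.1% and 47.8% of the falls. By gene, 2 rose (0.0147%) and 7 fell (0.0515%) after both. The 12 genes called higher after X-rays all had a carbon-ion change above 0, and 25 of the 28 called lower had one below 0. In the other direction, 38 of the 47 genes called higher after carbon ions and 52 of the 55 called lower had an X-ray change of the same sign. The beams share no array in their means, but the fit takes the spread from all 12 arrays, so the calls after the 2 beams are not independent. Over the 13582 genes, the changes after the 2 beams had r = 0.311, as a description across genes, which are not independent replicates. Leaving out single arrays moved the shared probe count to between 24, without carbon-ion 1 h array 2, and 143, without X-ray 1 h array 1; it was 25 to 32 without any other array of the X-ray set and 31 without carbon-ion control array 2.

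**Figure D1:**
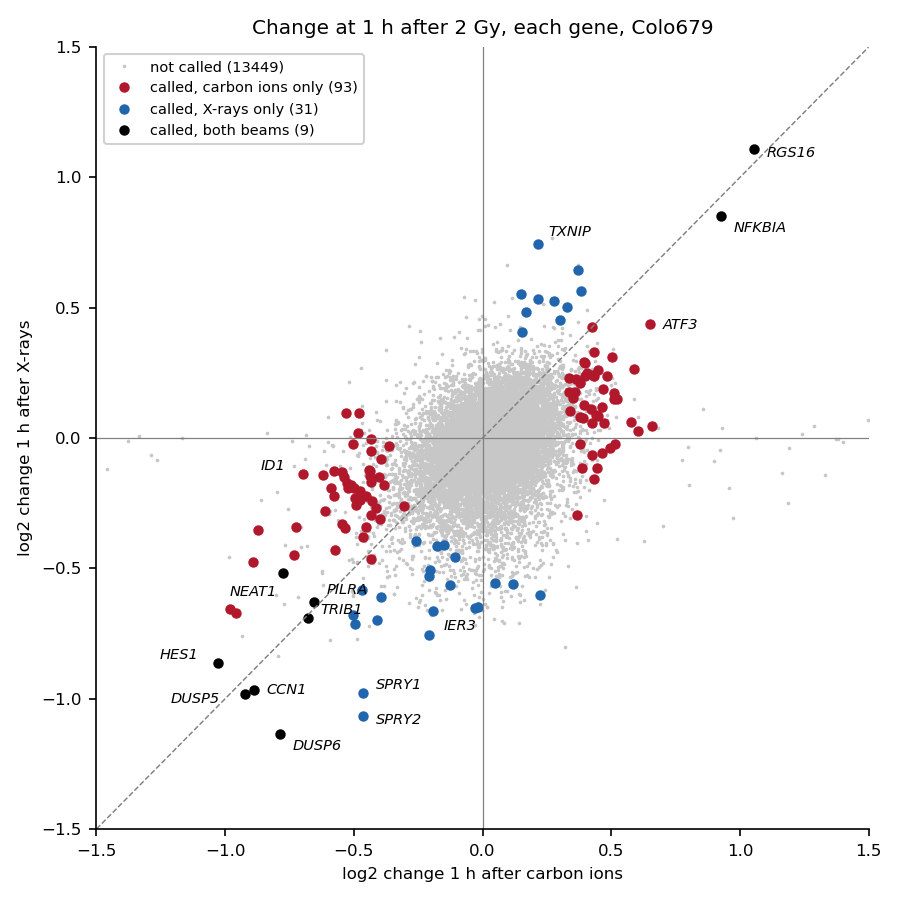
Change at 1 h after carbon ions (horizontal, log2) against the change after X-rays (vertical, log2) for each gene, with genes called after carbon ions only (93, red), X-rays only (31, blue) and both beams (9, black), and 18 genes outside the plotted range. The black points lie near the dashed line of equal change, RGS16 and NFKBIA at the top right and HES1, DUSP5, CCN1 and DUSP6 at the bottom left.

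NFKBIA, whose product binds NF-kB and which NF-kB itself transcribes, rose after both beams. In the carbon-ion set its 3 control arrays read 3.26, 3.07 and 3.23 and its 3 irradiated arrays 4.14, 3.98 and 4.22. The X-ray controls read 3.19, 3.29 and 3.18 and the irradiated arrays 4.16, 3.97 and 4.08. All 6 irradiated arrays lay above all 6 controls. By gene, arrays did not overlap in 12.3% of all tested genes (higher) and 6.35% (lower) after carbon ions and in 8.09% and 11.2% after X-rays, so a lack of overlap alone is common here. The change was 0.93 after carbon ions (95% interval 0.74 to 1.11, limma adjusted p = 0.000115) and 0.85 after X-rays (0.67 to 1.04, adjusted p = 0.000238).

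RGS16, a GTPase-activating protein that shortens signalling from G-protein-coupled receptors, had the largest rise of any gene called after either beam. Its carbon-ion controls read 2.85, 2.64 and 2.58 and the irradiated arrays 3.81, 3.65 and 3.78. Its X-ray controls read 2.71, 2.73 and 2.68 and the irradiated arrays 3.77, 3.68 and 4.0. No irradiated array overlapped a control. The rises were 1.05 (95% interval 0.85 to 1.26, limma adjusted p = 0.000112), or 2.08-fold, and 1.11 (0.91 to 1.31, adjusted p = 9.75e-05), or 2.16-fold. A second, dim RGS16 probe near the filter on levels (mean -0.40) gave -0.05 and -0.16, neither of which passed.

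The promoters of the shared genes are shown because these genes moved together after both beams, 2 of them up and the rest down. RefSeq promoter windows of GRCh38.p14, from 250 bases before to 50 bases after the transcription start, were found for 40 of the 57 genes that the naming rule chose or that are called list members, and for 4 of the 9 shared genes, which are printed on the gene's strand. The windows are chr14:35404700-35404999 on the minus strand for NFKBIA, chr1:182604340-182604639 on the minus strand for RGS16, chr3:194135898-194136197 on the plus strand for HES1 and chr12:89352452-89352751 on the minus strand for DUSP6. Capitals mark a match to the kappa B consensus, the letters that NF-kB prefers.
NFKBIA: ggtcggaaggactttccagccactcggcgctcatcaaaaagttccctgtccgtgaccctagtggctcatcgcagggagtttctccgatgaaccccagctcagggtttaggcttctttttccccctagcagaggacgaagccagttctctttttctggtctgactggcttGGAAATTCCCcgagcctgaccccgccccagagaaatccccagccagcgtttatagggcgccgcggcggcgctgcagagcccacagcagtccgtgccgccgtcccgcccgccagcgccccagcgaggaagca
RGS16: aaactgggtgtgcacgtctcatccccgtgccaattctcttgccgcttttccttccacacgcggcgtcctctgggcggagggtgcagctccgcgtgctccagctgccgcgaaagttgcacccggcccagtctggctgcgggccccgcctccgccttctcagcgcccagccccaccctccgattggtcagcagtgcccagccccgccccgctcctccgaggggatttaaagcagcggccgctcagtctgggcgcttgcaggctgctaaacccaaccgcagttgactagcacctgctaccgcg
HES1: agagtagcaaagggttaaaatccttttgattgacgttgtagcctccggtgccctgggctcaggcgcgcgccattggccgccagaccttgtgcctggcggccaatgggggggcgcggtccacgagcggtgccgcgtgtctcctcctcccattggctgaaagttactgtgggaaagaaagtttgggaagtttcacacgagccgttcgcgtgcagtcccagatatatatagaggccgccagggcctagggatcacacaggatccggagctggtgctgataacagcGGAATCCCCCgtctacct
DUSP6: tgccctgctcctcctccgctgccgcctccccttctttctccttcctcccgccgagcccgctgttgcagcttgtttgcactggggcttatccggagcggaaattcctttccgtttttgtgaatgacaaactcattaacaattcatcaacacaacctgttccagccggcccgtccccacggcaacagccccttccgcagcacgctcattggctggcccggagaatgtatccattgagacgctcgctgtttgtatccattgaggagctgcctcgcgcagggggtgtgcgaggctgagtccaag

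The kappa B letters occurred at positions -81 to -72 of NFKBIA, printed as GGAAATTCCC, and at positions 32 to 41 of HES1, printed as GGAATCCCCC, and both match the consensus on the strand opposite to the one printed. Neither the RGS16 nor the DUSP6 window held them. Of all 27305 promoter windows of this length, 5.721% hold a match on either strand, and 6 of the 40 members do, a gene that rose (NFKBIA) and one that fell (HES1) among them. The AP-1 letters TGANTCA, a site for FOS and JUN dimers, occur in 7.764% of all windows and in 2 of the 40. The cyclic AMP response element TGACGTCA occurs in 1.978% and in 0 of the 40, and the CArG box of serum response factor, searched by its consensus, in 1.285% and in 1 of the 40. These matches describe letters in a window and not sites in use.

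**Figure D2:**
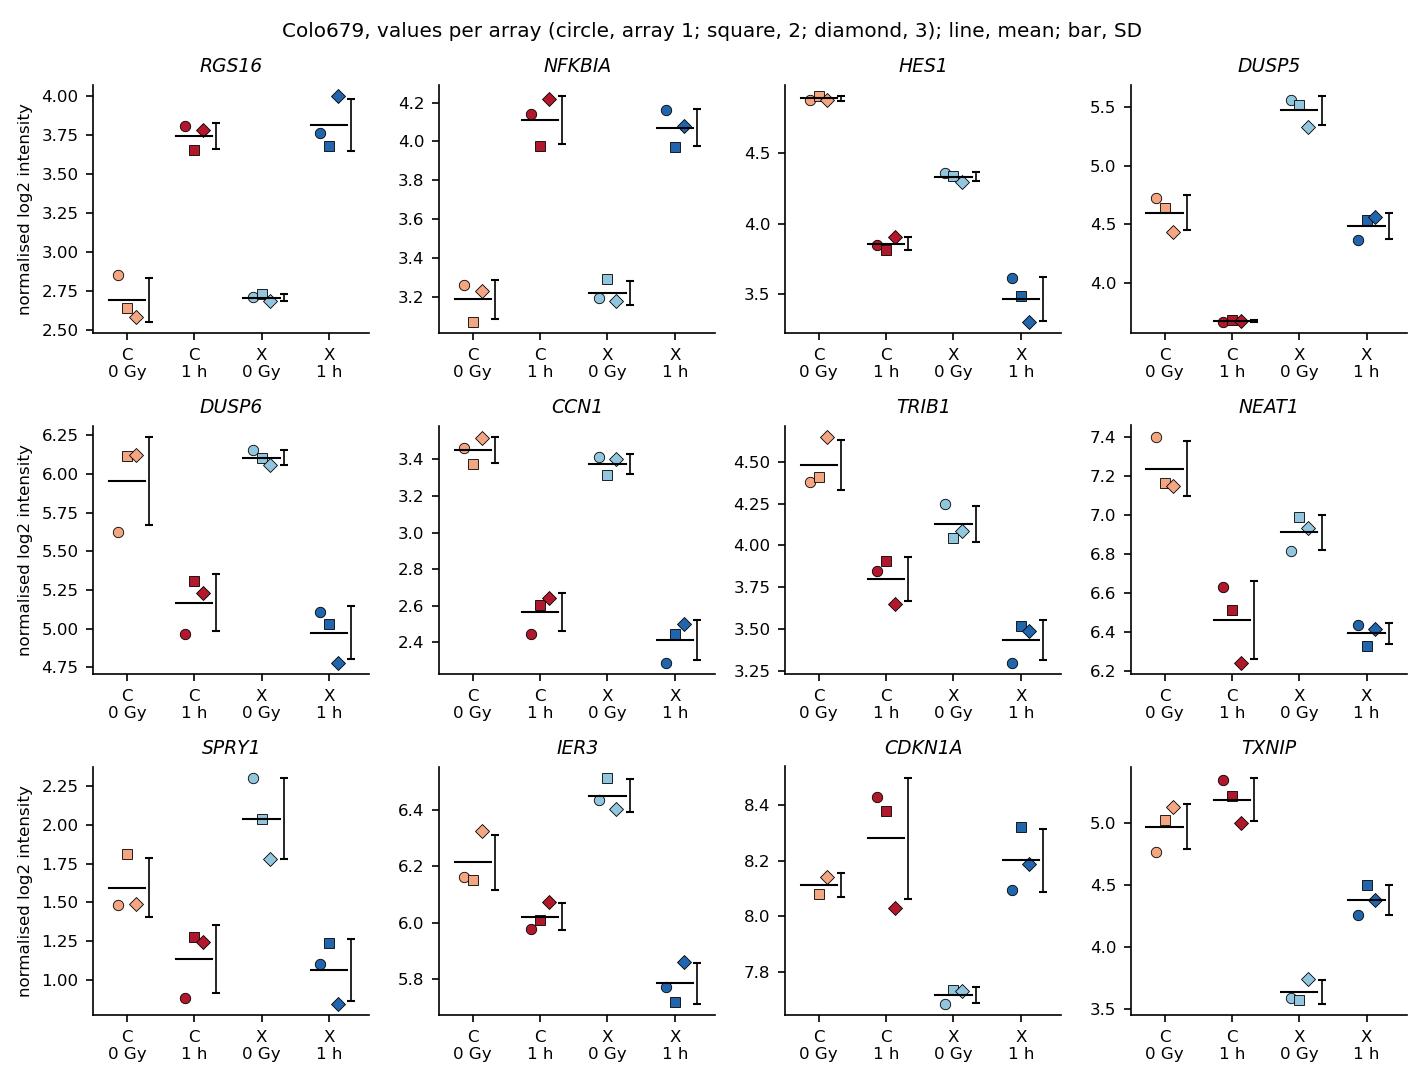
Normalised log2 intensity (vertical, its range set per panel) of 12 genes on each array, with the carbon-ion controls and irradiated arrays (C) and the X-ray controls and irradiated arrays (X), the mean as a line and the SD as a bar (n = 3; 2 for the carbon-ion controls of CDKN1A). In the 8 genes of the top 2 rows every irradiated array lies on one side of its own controls after both beams, while IER3, CDKN1A and TXNIP passed after X-rays only, with no beam difference past the threshold.

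The largest of the shared falls after carbon ions was that of HES1, the repressor that Notch signalling induces and that represses its own gene. Its carbon-ion controls read 4.88, 4.90 and 4.88 and its irradiated arrays 3.85, 3.82 and 3.91. Its X-ray controls read 4.36, 4.34 and 4.30 and its irradiated arrays 3.61, 3.49 and 3.31. The groups did not overlap within either set. The falls were -1.03 (95% interval -1.20 to -0.86, limma adjusted p = 4.46e-05) and -0.86 (-1.03 to -0.69, adjusted p = 0.00013). After X-rays DUSP6, DUSP5 and CCN1 fell further. The 2 sets of unirradiated cells themselves differed in HES1, by 0.56, with the carbon-ion controls higher (adjusted p = 0.000223).

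Brakes of the ERK cascade made up the next group. DUSP5, a nuclear phosphatase of ERK, read 4.72, 4.64 and 4.44 in the carbon-ion controls and 3.67, 3.69 and 3.68 after irradiation. In the X-ray set it read 5.56, 5.52 and 5.33, and then 4.36, 4.54 and 4.56. It fell after both beams from levels that differed: -0.92 and -0.98 (beam difference 0.06, 95% interval -0.21 to 0.33), from controls that were 0.87 apart on the log2 scale (limma adjusted p = 0.000147, 0.00013 and, for the controls, 5.13e-06). DUSP6, the cytoplasmic phosphatase of ERK, read 5.63, 6.12 and 6.13 in the carbon-ion controls against 4.96, 5.31 and 5.23. DUSP6 in the X-ray set read 6.15, 6.11 and 6.06 against 5.11, 5.03 and 4.78. Its falls were -0.79 (adjusted p = 0.00891) and -1.13 (adjusted p = 0.000506), the latter 2.20-fold.

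The Sprouty genes, whose products act upstream in the same cascade, passed the test after X-rays alone. SPRY1 read 2.30, 2.04 and 1.78 in the X-ray controls and 1.10, 1.24 and 0.84 at 1 h, a change of -0.98 (limma adjusted p = 0.0056). In the carbon-ion set it read 1.48, 1.81 and 1.49, and then 0.88, 1.27 and 1.24, a change of -0.46 (adjusted p = 0.131). SPRY2 read 3.02, 2.95 and 2.69 and then 2.14, 1.77 and 1.56 in the X-ray set, a change of -1.07 (adjusted p = 0.0173), and 2.62, 2.70 and 2.28 and then 1.58, 2.38 and 2.26 in the carbon-ion set, -0.46 (adjusted p = 0.225). Its carbon-ion arrays overlapped their controls. The sets started from different levels. Control means of SPRY1 were 1.59 in the carbon-ion set and 2.04 in the X-ray set, and its means at 1 h were 1.13 and 1.06. For SPRY2 the control means were 2.54 and 2.89, and the means at 1 h were 2.07 and 1.82. The difference between the beams did not pass for either gene: 0.52 (95% interval 0.07 to 0.96, adjusted p = 0.618) for SPRY1 and 0.60 (0.04 to 1.16, adjusted p = 0.643) for SPRY2. The SPRY2 call after X-rays was lost when any of 4 X-ray arrays was left out, that is X-ray control array 1 or 2 or X-ray 1 h array 2 or 3 (adjusted p up to 0.124).

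Of the 15 tested members of the MAPK feedback list, 1 rose and 2 fell after carbon ions, with a median of -0.17, and 0 rose and 4 fell after X-rays, with a median of -0.25. Over all tested genes the medians were 0.03 and -0.03, and the shares called lower were 0.405% and 0.206%. The member that rose was DUSP2, a phosphatase of ERK and p38, at 0.40 after carbon ions (limma adjusted p = 0.0236) and 0.29 after X-rays (adjusted p = 0.135); the call was lost under 5 of 20 alternative settings (adjusted p up to 0.117). DUSP4 was at -0.17 and -0.47, DUSP10 at -0.24 and -0.30, and the ERK-induced factors ETV1, ETV4 and ETV5 at 0.33, 0.04 and 0.27 after carbon ions and at -0.14, -0.03 and 0.03 after X-rays, none of which passed. PHLDA1, another gene that ERK induces, did not pass on its brightest probe (-0.24 and -0.18), but a dimmer probe passed after both beams (-0.41, adjusted p = 0.0305, and -0.53, adjusted p = 0.0107). In unirradiated cells 14 of the 15 members were lower in the carbon-ion set, with a median of -0.19 beside -0.05 over all genes. Of the members, 3 were called lower there and 1 higher, beside 8.11% and 4.95% of all genes.

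Immediate early genes, which cells transcribe without new protein after growth factors or stress, did not rise as a group. CCN1, a secreted matrix protein, fell: the carbon-ion controls read 3.46, 3.38 and 3.52 and the irradiated arrays 2.45, 2.60 and 2.64, and the X-ray controls read 3.41, 3.31 and 3.40 and the irradiated arrays 2.29, 2.44 and 2.50. With no overlap in either set, the changes were -0.89 (95% interval -1.07 to -0.71, limma adjusted p = 0.000115) and -0.97 (-1.14 to -0.79, adjusted p = 9.75e-05). Its relative CCN2, a target of TGF-beta and YAP, passed after carbon ions (-0.50, adjusted p = 0.0272) and was at -0.19 after X-rays (adjusted p = 0.438); the carbon-ion call was lost without any one of carbon-ion control arrays 1 and 2 and the 3 carbon-ion 1 h arrays (adjusted p up to 0.106). TRIB1, a pseudokinase that directs proteins to degradation, read 4.38, 4.41 and 4.65 and then 3.85, 3.91 and 3.65 in the carbon-ion set, and 4.25, 4.05 and 4.09 and then 3.30, 3.52 and 3.49 in the X-ray set. It fell by 0.68 and 0.69 on the log2 scale (adjusted p = 0.00429 and 0.00457), with no overlap. A dim second TRIB1 probe gave 0.13 and 0.00 and did not pass.

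Of the 27 tested immediate early genes, ATF3 rose and CCN1 and CCN2 fell after carbon ions, and none rose and CCN1, EGR3 and IER3 fell after X-rays. The medians were -0.02 and -0.10, beside 0.03 and -0.03 over all genes, of which 0.346% rose and 0.405% fell after carbon ions and 0.0884% and 0.206% after X-rays. ATF3, a stress-induced transcription factor, read 1.85, 1.62 and 1.64 and then 2.10, 2.41 and 2.56 in the carbon-ion set (0.65, limma adjusted p = 0.014). In the X-ray set, where 1 irradiated array had no value, it read 1.23, 1.40 and 1.35 and then 1.84 and 1.69 (0.44, adjusted p = 0.154). IER3, which both NF-kB and ERK induce, read 6.44, 6.51 and 6.40 in the X-ray controls and 5.77, 5.72 and 5.86 at 1 h (-0.66, adjusted p = 0.000429), against 6.16, 6.15 and 6.33 and then 5.98, 6.01 and 6.08 in the carbon-ion set (-0.19, adjusted p = 0.209). The beam difference of 0.47 in IER3 did not pass (95% interval 0.25 to 0.70, adjusted p = 0.462). EGR3 was at -0.50 (adjusted p = 0.0657) and -0.68 (adjusted p = 0.0315, lost under 5 of 20 alternative settings, up to 0.182). FOS, JUN and EGR1 were at -0.01, 0.05 and -0.03 after carbon ions and at -0.36, -0.10 and -0.27 after X-rays, and none passed. The ATF3 call was lost without carbon-ion control array 2 or carbon-ion 1 h array 2 (adjusted p up to 0.0814).

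Of the 20 tested genes of the NF-kB list, NFKBIA alone passed after carbon ions, while NFKBIA and GADD45B rose and IER3 and NFKBIZ fell after X-rays. The list medians were -0.01 and -0.11, beside 0.03 and -0.03 over all genes, of which 0.346% were called higher and 0.405% lower after carbon ions and 0.0884% and 0.206% after X-rays. GADD45B, a stress sensor that binds kinases upstream of JNK and p38, read 5.23, 5.28 and 5.35 in the X-ray controls and 6.04, 5.90 and 5.85 at 1 h, a rise of 0.64 (limma adjusted p = 0.0056). In the carbon-ion set it read 5.56, 5.21 and 5.53 and then 5.76, 5.72 and 5.93, a change of 0.37 without overlap (adjusted p = 0.0713). NFKBIZ, a nuclear cofactor of NF-kB, was at -0.47 (adjusted p = 0.0666) and -0.58 (adjusted p = 0.0462), a call lost under 12 of 20 alternative settings (adjusted p up to 0.254). No other member passed. TNFAIP3 was at 0.13 and -0.17, NFKBIE at -0.01 and -0.21 and ICAM1 at -0.01 and -0.11. IRF1 was at 0.37 and 0.44 (limma adjusted p = 0.155 and 0.142), and a dimmer IRF1 probe at 0.20 and 0.10. TNIP1 was at 0.10 and 0.30 (adjusted p = 0.654 and 0.194). At an unadjusted p under 0.05, 4 members of the list were up and 3 down after carbon ions, and 4 up and 2 down after X-rays. Of all 13582 tested genes, 1933 and 1969 were at that level after the 2 beams, in either direction. None of the 10 tested genes of the cytokine and chemokine list passed after either beam. CCL28, a chemokine gene outside that list, was called after carbon ions on its brightest probe (-0.48, limma adjusted p = 0.0236). That probe was at 0.10 after X-rays (adjusted p = 0.725). A dimmer CCL28 probe was at 0.28 after carbon ions (adjusted p = 0.162).

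Among the targets of p53, 22 of 25 were above 0 after carbon ions, with 6 up and 0 down at an unadjusted p under 0.05. After X-rays 13 of 25 were above 0, with 6 up and 2 down. The members that passed differed between the sets, but the beam difference passed for 0 of the 25. Of 25 tested, SESN2, TP53INP1 and GADD45A rose after carbon ions (medians 0.14 for the list and 0.03 for all genes; 0.346% of all genes were called higher), and CDKN1A rose after X-rays (list median 0.02, all genes -0.03; 0.0884%). CDKN1A, the p21 inhibitor of cyclin-dependent kinases, read 7.69, 7.74 and 7.73 in the X-ray controls and 8.10, 8.32 and 8.19 at 1 h, a rise of 0.48 (limma adjusted p = 0.0445). In the carbon-ion set 1 control array had no value, the other 2 read 8.08 and 8.14, and the irradiated arrays read 8.43, 8.38 and 8.03, which overlapped them (0.17, adjusted p = 0.47); the beam difference of -0.31 did not pass (adjusted p = 0.668). The carbon-ion controls were 0.39 higher in CDKN1A than the X-ray controls (adjusted p = 0.0281). The CDKN1A call was lost under 14 of 19 alternative settings (adjusted p up to 0.232), median centring among them, under which the X-ray list median was -0.01.

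SESN2, which restrains the growth kinase mTORC1, read 2.28, 2.28 and 2.38 in the carbon-ion controls and 2.62, 2.86 and 2.87 at 1 h (0.47, limma adjusted p = 0.0158). TP53INP1, a cofactor of p53, and GADD45A, a partner of the p38 pathway and of DNA repair, were at 0.43 (adjusted p = 0.0236) and 0.40 (adjusted p = 0.0365). After X-rays the same genes were at 0.19, 0.24 and 0.29, none of which passed. All 3 calls were lost without any one of carbon-ion control arrays 1 and 2 and carbon-ion 1 h arrays 2 and 3 (adjusted p up to 0.132). MDM2, the ligase that degrades p53, was at 0.13 and -0.01, and the death genes BAX, FAS and PMAIP1 lay between 0.01 and 0.18 after carbon ions and between -0.11 and 0.04 after X-rays, without passing.

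**Figure D3:**
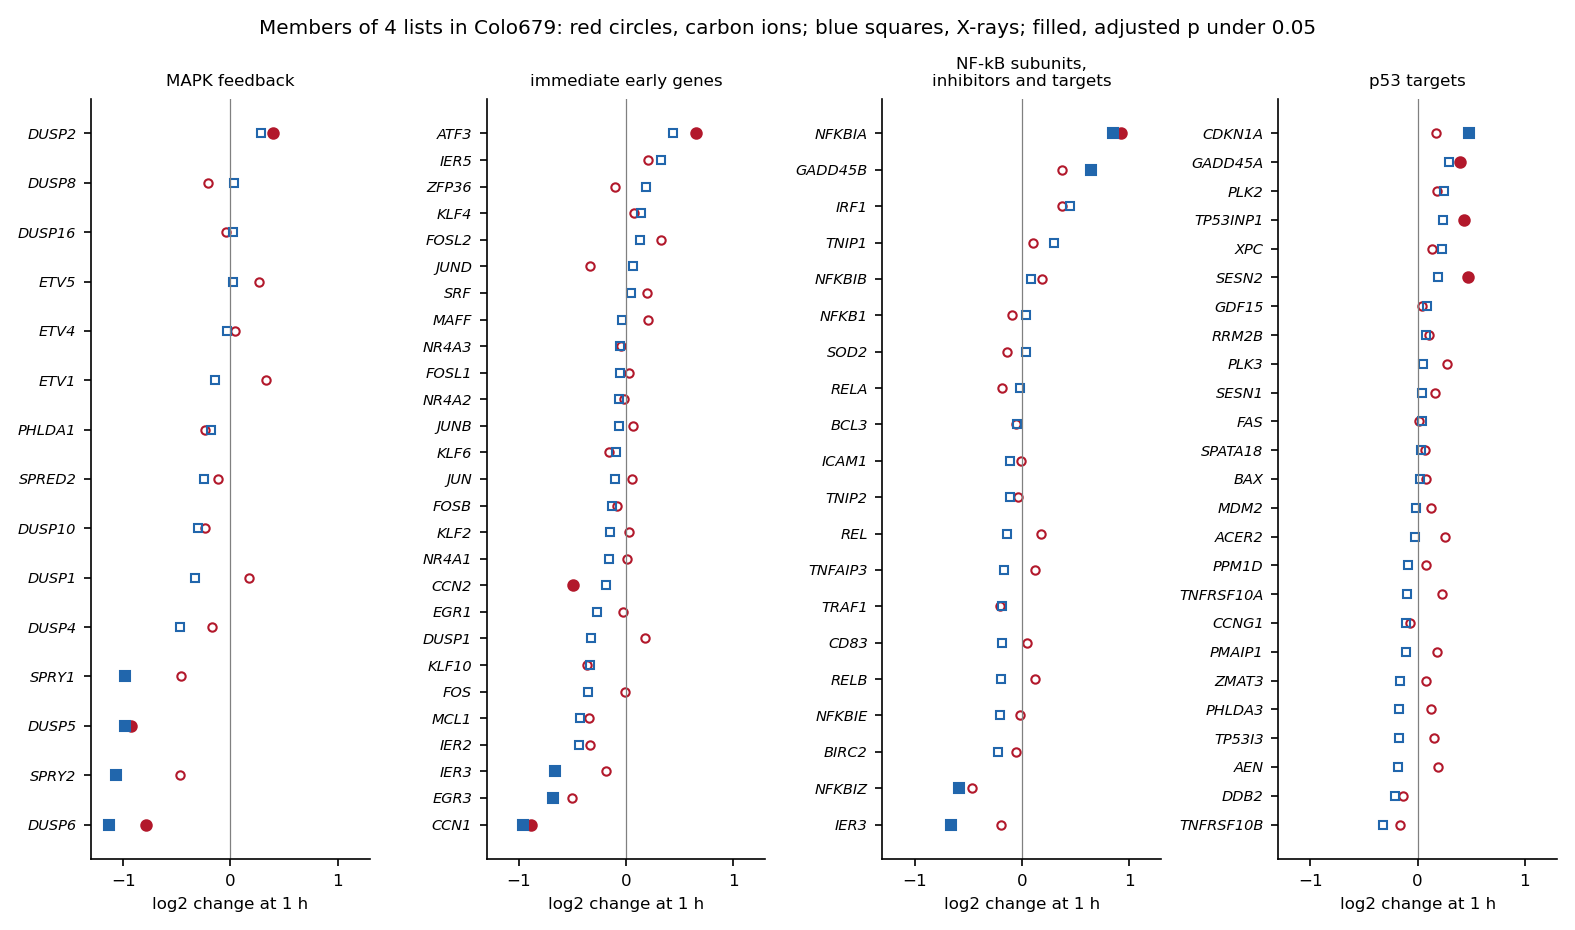
Log2 change at 1 h (horizontal) of every tested member of the MAPK feedback (15), immediate early (27), NF-kB (20) and p53 target (25) lists, with red circles for carbon ions, blue squares for X-rays and filled symbols for an adjusted p under 0.05. Filled symbols stand at both ends, DUSP6, DUSP5, CCN1 and IER3 at the left and NFKBIA at the right, with most members near 0.

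The remaining shared falls were NEAT1 and PILRA. NEAT1, the long non-coding RNA that scaffolds nuclear paraspeckles, read 7.40, 7.16 and 7.15 and then 6.63, 6.52 and 6.24 in the carbon-ion set. The X-ray set gave 6.81, 6.99 and 6.93 and then 6.44, 6.33 and 6.42. The groups did not overlap, and the changes were -0.77 (limma adjusted p = 0.00147) and -0.52 (adjusted p = 0.0332), the second of which was lost under 12 of 20 alternative settings (adjusted p up to 0.183). A dim second NEAT1 probe had the same signs (-0.40 and -0.33) without passing. PILRA, an inhibitory receptor gene of myeloid cells, read 2.55, 2.50 and 2.54 and then 1.78, 1.94 and 1.91, and 2.47, 2.15 and 2.17 and then 1.85, 1.59 and 1.46. It fell by 0.65 and 0.63 on the log2 scale (adjusted p = 0.00897 and 0.0143). The X-ray call of PILRA was lost without X-ray control array 1 or X-ray 1 h array 2 or 3. Of 8 leukocyte markers measured, 3 passed the filter and none of those passed the test, although all 3 were below 0 after X-rays (median -0.17, 1 at an unadjusted p under 0.05); the summed leukocyte level was 7.48 to 8.18 in the carbon-ion controls, 7.77 to 8.67 after carbon ions, 6.12 to 7.65 in the X-ray controls and 5.90 to 6.77 after X-rays (linear intensity relative to the array median), and its part in the PILRA change was not tested.

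ID1, an inhibitor of bHLH transcription factors that BMP signalling induces, passed after carbon ions only. Its brightest probe read 2.63, 2.60 and 2.60 in the carbon-ion controls and 1.64, 1.91 and 2.18 at 1 h (-0.70, limma adjusted p = 0.0412). In the X-ray set it read 2.42, 2.32 and 2.21 and then 2.63, 1.98 and 1.91, which overlapped (-0.14, adjusted p = 0.768). Its second probe, of like brightness, changed by -0.86 (adjusted p = 0.00126) and 0.16 (adjusted p = 0.541), with a beam difference of -1.02 that came close to the threshold (adjusted p = 0.0884). The call on the brightest probe was lost under 10 of 20 alternative settings (adjusted p up to 0.143). No other of the 10 tested members of the ID and SMAD list passed after either beam; ID2 and ID3 were at -0.06 and -0.30 after carbon ions and at 0.28 and -0.48 after X-rays. A dimmer probe of ID2 was at -0.02 after carbon ions and rose by 0.60 after X-rays (adjusted p = 0.0053).

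TXNIP, which binds thioredoxin and limits glucose uptake, passed after X-rays only. It read 3.59, 3.58 and 3.75 in the X-ray controls and 4.26, 4.50 and 4.38 at 1 h, a rise of 0.74 (95% interval 0.51 to 0.97, limma adjusted p = 0.00468). The carbon-ion controls, at 4.77, 5.02 and 5.13, already lay above the irradiated arrays of the X-ray set, and the carbon-ion change was 0.22 (adjusted p = 0.338). The beam difference of -0.53 did not pass (adjusted p = 0.47). Its level in unirradiated cells differed by 1.33 between the sets (adjusted p = 2.3e-07), so the X-ray rise started from a lower level.

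Besides RGS16, NFKBIA and ATF3, the largest rises among genes called after carbon ions without overlap of arrays were those of A4GALT, which makes the Gb3 glycolipid (0.66, limma adjusted p = 0.0158), OLFM3 (0.60, adjusted p = 0.044), SNAP25, a SNARE protein of exocytosis (0.59, adjusted p = 0.0301), and ZNF669 (0.58, adjusted p = 0.0356). SERTAD1, a regulator of E2F and CDK4, read 4.22, 4.04 and 4.20 and then 4.60, 4.72 and 4.68, a rise of 0.51 (adjusted p = 0.00535), against 0.15 after X-rays. Further rises between 0.47 and 0.52 were those of SLC22A11, ATP9A, CPT1C, TRAM1L1, HS1BP3, ST6GALNAC3 and OSR1. Several of these genes were dim and their control arrays spread: A4GALT read 0.34, 0.62 and 0.81 in the controls and 1.23, 1.20 and 1.33 at 1 h, while its X-ray controls at 1.42, 1.09 and 1.04 already reached the irradiated level. Of the 13 carbon-ion rises besides RGS16 and NFKBIA that the naming rule chose, SERTAD1 alone kept its call under all 20 alternatives.

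The other large falls after carbon ions were those of RPL36AP40, a ribosomal pseudogene (-0.98, limma adjusted p = 0.0452), CYCS, which encodes cytochrome c (-0.96, adjusted p = 0.0416), RINL, a Rab exchange factor gene (-0.89, adjusted p = 0.00148), ZNF845 (-0.87, adjusted p = 0.0117), PHF24 (-0.73, adjusted p = 0.000829), ADCY10P1 (-0.72, adjusted p = 0.00645) and LGALS2, a galectin gene (-0.62, adjusted p = 0.0148). RINL read 4.08, 3.78 and 3.87 and then 2.96, 3.00 and 3.09 after carbon ions. In the X-ray set it read 4.11, 3.92 and 4.13 and then 3.82, 3.59 and 3.33, below its controls but without passing (-0.48, adjusted p = 0.0935). PHF24 had the same pattern at -0.45 after X-rays (adjusted p = 0.0551, 1 irradiated array without a value). CYCS controls spread widely, at 4.82, 4.34 and 3.88, as did those of RPL36AP40, at 2.10, 1.29 and 1.02. A probe may not tell a pseudogene from its parent gene, and both calls are uncertain for that reason as well. RINL, PHF24 and ADCY10P1 kept their calls under all alternatives run for them.

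Among genes called after X-rays alone, the rises besides TXNIP, GADD45B and CDKN1A were those of MIR181A2HG, the host transcript of a miR-181 cluster (0.57, limma adjusted p = 0.0116), MRPL55, a mitochondrial ribosomal protein gene (0.55, adjusted p = 0.0389), PLD2, a phospholipase D gene (0.53, adjusted p = 0.0195), SP3, a GC-box transcription factor gene (0.52, adjusted p = 0.0236), CSKMT (0.50, adjusted p = 0.0472), MATCAP2 (0.45, adjusted p = 0.0318) and RNF4BP (0.41, adjusted p = 0.0444). MIR181A2HG read 1.42, 1.46 and 1.53 and then 1.91, 2.14 and 2.07 in the X-ray set, and its carbon-ion change of 0.38 lay just above the threshold (adjusted p = 0.0543). Each of the rises from MIR181A2HG to RNF4BP lost its call under at least 1 alternative setting (limma adjusted p up to 0.235). Dimmer probes of PLD2, SP3 and MATCAP2 were at -0.06, 0.00 and -0.24 after X-rays and did not pass. The falls included TUBD1, which encodes delta-tubulin (-0.76, adjusted p = 0.0075), LUC7L, a U1 snRNP factor gene (-0.71, adjusted p = 0.0389), AFTPH-DT (-0.70, adjusted p = 0.0075), ACAD11, an acyl-CoA dehydrogenase gene (-0.65, adjusted p = 0.0143), and ADAM15, a membrane protease gene (-0.65, adjusted p = 0.0427). ACAD11 and ADAM15 were at -0.03 and -0.02 after carbon ions, but the beam difference passed for neither (adjusted p = 0.462 and 0.474). The calls of ADAM15, LUC7L and ACAD11 were lost under 13, 10 and 4 of 20 alternative settings (adjusted p up to 0.21, 0.219 and 0.11).

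Few genes passed in the other groups at 1 h. Over all genes 0.751% passed after carbon ions and 0.295% after X-rays, and at those shares a list of 4 to 29 genes may hold none. Of 17 tested splicing genes, SRSF1, an SR splicing factor gene, fell after carbon ions (-0.46, limma adjusted p = 0.0371), and CLK4, a kinase of SR proteins, fell after X-rays (-0.61, adjusted p = 0.0462), with list medians of -0.09 and -0.20, beside 0.03 and -0.03 over all genes, of which 0.405% and 0.206% were called lower. After X-rays 14 of the 17 were below 0, 8 at an unadjusted p under 0.05. Of all 13582 tested genes, 1969 were at that level after X-rays, in either direction. The SRSF1 call was lost under 8 of 20 alternative settings, median centring among them (adjusted p up to 0.143), and that of CLK4 under 12 of 20 (adjusted p up to 0.261). A dimmer SRSF3 probe rose after carbon ions (0.71, adjusted p = 0.0104) while its brightest probe was at -0.19. None of the 29 tested genes of G2 phase and mitosis, 20 of G1/S and replication, 21 of DNA damage sensing and repair, 13 of the BCL2 family, 12 interferon-stimulated genes, 10 KLF factors, 9 heat-shock genes, 7 of the MYC network, 4 of the BTG and TOB family or 11 ribosomal protein genes passed after either beam on its brightest probe. A dimmer KLF11 probe rose after both beams (0.39, limma adjusted p = 0.046, and 0.55, adjusted p = 0.011). The brightest KLF11 probe was at 0.17 and 0.29. A dimmer RPS14 probe rose after carbon ions (0.35, adjusted p = 0.029) and was at 0.08 after X-rays. Of 12 genes of the integrated stress and unfolded protein response, SESN2 was the one that rose, after carbon ions.

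The difference between the beams was tested on all 12 arrays as the carbon-ion change minus the X-ray change. One of 32283 probes passed (0.0031%), and it has no gene name here (probe 217041). No probe passed with the replicate number as a block, or without any one of carbon-ion control arrays 2 and 3, carbon-ion 1 h array 2, X-ray control arrays 1 and 2 and X-ray 1 h arrays 2 and 3. It read 2.79, 2.68 and 2.71 and then 2.38, 2.28 and 2.52 in the carbon-ion set, and 2.28, 2.25 and 2.19 and then 2.84, 3.17 and 3.13 in the X-ray set, a difference of -1.14 (limma adjusted p = 0.0118). No gene passed (0%), with 1166 genes at an unadjusted p under 0.05. The genes with the smallest p, none of which passed, were QPRT, an enzyme of NAD synthesis (0.66, adjusted p = 0.251), EIF3C, a translation initiation factor subunit (0.68, adjusted p = 0.395), and IST1, an ESCRT component (0.83, adjusted p = 0.462), all higher after carbon ions relative to X-rays, and CCL28, a chemokine (-0.58), TACR1, the substance P receptor (-0.71), and PINK1-AS (-0.48), lower (adjusted p = 0.462 for each). IST1 had 2 of 3 values in every group. Dimmer probes of IST1, CCL28 and TACR1 gave beam differences of -0.08, 0.20 and 0.01, none of which passed. The median 95% half-width of a gene's beam difference was 0.30 on the log2 scale before any adjustment, and differences as large as that of IST1 missed the adjusted threshold. A gene called after one beam is not thereby shown to be specific to it.

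The count rose without X-ray 1 h array 1. Without it, 174 probes passed for the beam difference, 161 higher and 13 lower, among them 117 genes, all higher after carbon ions relative to X-rays. The largest named differences without that array were those of CEACAM5, a cell-surface adhesion protein (1.46, limma adjusted p = 0.0153), APH1A, a gamma-secretase subunit (1.29, adjusted p = 0.0213), and PLPP2, a lipid phosphatase (1.20, adjusted p = 0.0153). In 148 of the 174 probes the X-ray change was below 0 and larger in size than the carbon-ion change. CEACAM5 read 2.74, 2.60 and 2.77 in the X-ray controls and 2.56, 1.67 and 1.47 at 1 h. Its array 1 lay near the controls and the other 2 below. The gene was picked from the fit without that array, so it does not say where the array lies in other genes. The root mean square deviation of X-ray 1 h array 1 from its group mean over probes was 0.135, beside 0.125 and 0.127 for the other 2, and that of carbon-ion control array 1 was 0.211, the highest of the 12.

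The unirradiated cells of the 2 sets differed far more than irradiation changed either: 3900 probes passed (12.1%), 1698 higher (5.26%) and 2202 lower (6.82%) in the carbon-ion set, and 1774 genes (13.1%; 672 higher, 4.95%, and 1102 lower, 8.11%). The balance turned with the values as deposited, to 2557 higher and 1678 lower. It also turned without carbon-ion control array 2 (1279 higher and 1032 lower) and without X-ray control array 1 (1180 and 1057), and without X-ray control array 2 it was 1092 and 1161. TESC, a calcium-binding protein gene, and TXNIP were higher there by 1.34 and 1.33, and PAK2, a p21-activated kinase gene, SOX5, a transcription factor gene, and ATAD5, which unloads PCNA from DNA, were lower, at -1.86, -1.75 and -1.73. GPER1 was also called higher (1.40), on 1 control array at 3.45 with the others at 0.93 and 1.17. The melanocyte list was higher in the carbon-ion controls, with 6 of 11 genes called, a median of 0.32 and summed levels of 2130 to 2170 against 1680 to 1860. Beam and set cannot be told apart in any comparison between the beams, because each beam was used in 1 set only.

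At 3 h, in arrays compared with the same unirradiated cells, the early genes had gone different ways, which is given as values without a test. NFKBIA was at 0.13 and -0.02 relative to the controls after carbon ions and X-rays, DUSP5 at 0.05 and 0.01, TRIB1 at -0.06 and 0.16, EGR3 at 0.26 and 0.06 and IER3 at -0.01 and 0.06, all near their controls again. RGS16 was still at 0.56 and 0.41. HES1 stayed at -0.97 and -0.94, PILRA at -0.54 and -0.91, and NEAT1 was lower than at 1 h, at -1.23 and -1.05. CDKN1A, at 0.17 and 0.48 at 1 h, was at 1.23 and 1.55. ID1 was at -1.24 and -0.90, low after both beams. CCN1 differed between the sets at 3 h: it was at -0.03 after carbon ions, with 2 arrays at 3.37 and 3.47 and 1 without a value, and at -0.95 after X-rays, with arrays at 2.32, 2.44 and 2.53. SPRY2 was at -0.57 and -1.12, and SPRY1 at -0.02 and -0.73.

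**Figure D4:**
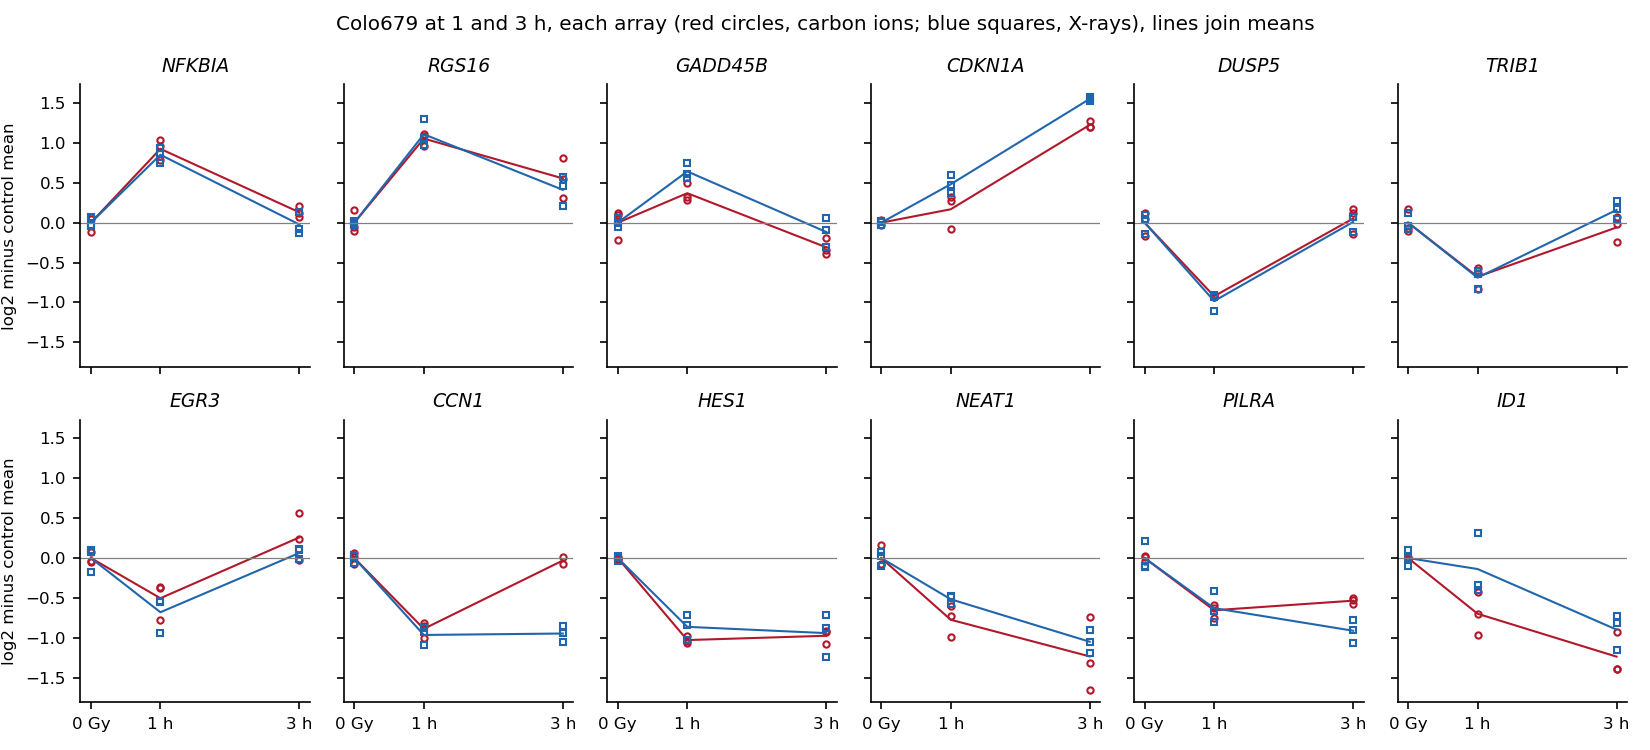
Log2 intensity minus the mean of the same set's unirradiated arrays (vertical) of 12 genes at 0 Gy and at 1 h and 3 h after 2 Gy (horizontal), each array as a symbol and means joined by lines, for carbon ions (red circles) and X-rays (blue squares). NFKBIA, DUSP5, TRIB1 and EGR3 are back near 0 at 3 h, whereas HES1, NEAT1 and PILRA are still low and CDKN1A is higher than at 1 h.

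Whether this response is like that of the other lines was tested as the Colo679 change minus the mean change of 92-1, C32TG, HMV-I, HMV-II and MeWo, over 72 arrays. After carbon ions 94 of 31701 probes passed (0.297%; 76 higher, 0.24%, and 18 lower, 0.0568%), and 31 of 13525 genes (0.229%; 24 higher, 0.177%, and 7 lower, 0.0518%). After X-rays 184 probes passed (0.58%; 61 higher, 0.192%, and 123 lower, 0.388%), and 102 genes (0.754%; 13 higher, 0.0961%, and 89 lower, 0.658%). The balance of probes turned after carbon ions with the values as deposited (16 higher and 32 lower), and after X-rays without X-ray 1 h array 3 (42 higher and 18 lower). After X-rays rises made up 33.2% of the probes, against 20.6% after median centring and 19.8% from the values as deposited. CCN1 stood furthest apart. It was at 1.08, -0.25, 0.89, 0.67 and 0.01 after carbon ions in 92-1, C32TG, HMV-I, HMV-II and MeWo (mean 0.48 ± 0.58, SD, n = 5 lines) against -0.89 in Colo679, a difference of -1.37 (limma adjusted p = 2.38e-13). After X-rays the other lines averaged 0.20 ± 0.48 (SD, n = 5) against -0.97 in Colo679, a difference of -1.17 (adjusted p = 1.34e-10). Colo679 was the lowest of the 6 lines after both beams.

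The same held for HES1, DUSP5 and TRIB1, each of which was lower in Colo679 than in all 5 other lines after both beams. Their differences from the mean of the other lines were -0.80, -0.87 and -0.70 after carbon ions and -0.87, -0.78 and -0.68 after X-rays (limma adjusted p from 5.71e-08 to 0.00402). RGS16 was above all 5 other lines after both beams, by 0.66 and 0.85. SPRY1 was at -0.98 in Colo679 after X-rays and between -0.03 and 0.27 in the other lines, a difference of -1.10 (adjusted p = 0.000935). DUSP6 fell nearly as far in C32TG as in Colo679, at -0.80 and -1.02, and lay between -0.45 and 0.18 in the other 4 lines; it differed from the mean of the lines after X-rays (-0.86, adjusted p = 0.00188) and not past the threshold after carbon ions (-0.63, adjusted p = 0.0573). CCN2 was lower than the lines' mean after carbon ions (-0.72, adjusted p = 6.3e-06), with C32TG at -0.52 beside -0.50 in Colo679.

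NFKBIA, NEAT1 and PILRA had changes of 1 sign in all 6 lines after both beams. NFKBIA was between 0.32 and 0.52 in the other lines after carbon ions, all below Colo679 (difference 0.47, limma adjusted p = 0.0069), and between 0.38 and 0.87 after X-rays (difference 0.22, adjusted p = 0.324). PILRA was below 0 in all 6 lines after both beams, from -0.39 to -0.70 after carbon ions and from -0.16 to -0.63 after X-rays. NEAT1 was also below 0 in all 6 after both, from -0.17 to -1.80 after carbon ions. GADD45B was between 0.48 and 0.79 in all 6 lines after X-rays. For NEAT1, PILRA and GADD45B the difference between Colo679 and the other lines did not pass after either beam. The counts of line differences also moved with single arrays, from 45 to 332 after carbon ions (without carbon-ion 1 h array 3 and without carbon-ion control array 3) and from 32 to 1170 after X-rays (without X-ray 1 h arrays 2 and 1). The carbon-ion count was 61 and 168 without carbon-ion control arrays 1 and 2 and 210 without carbon-ion 1 h array 1, and the X-ray count was 75, 63 and 109 without X-ray control arrays 1, 2 and 3 and 60 without X-ray 1 h array 3.

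**Figure D5:**
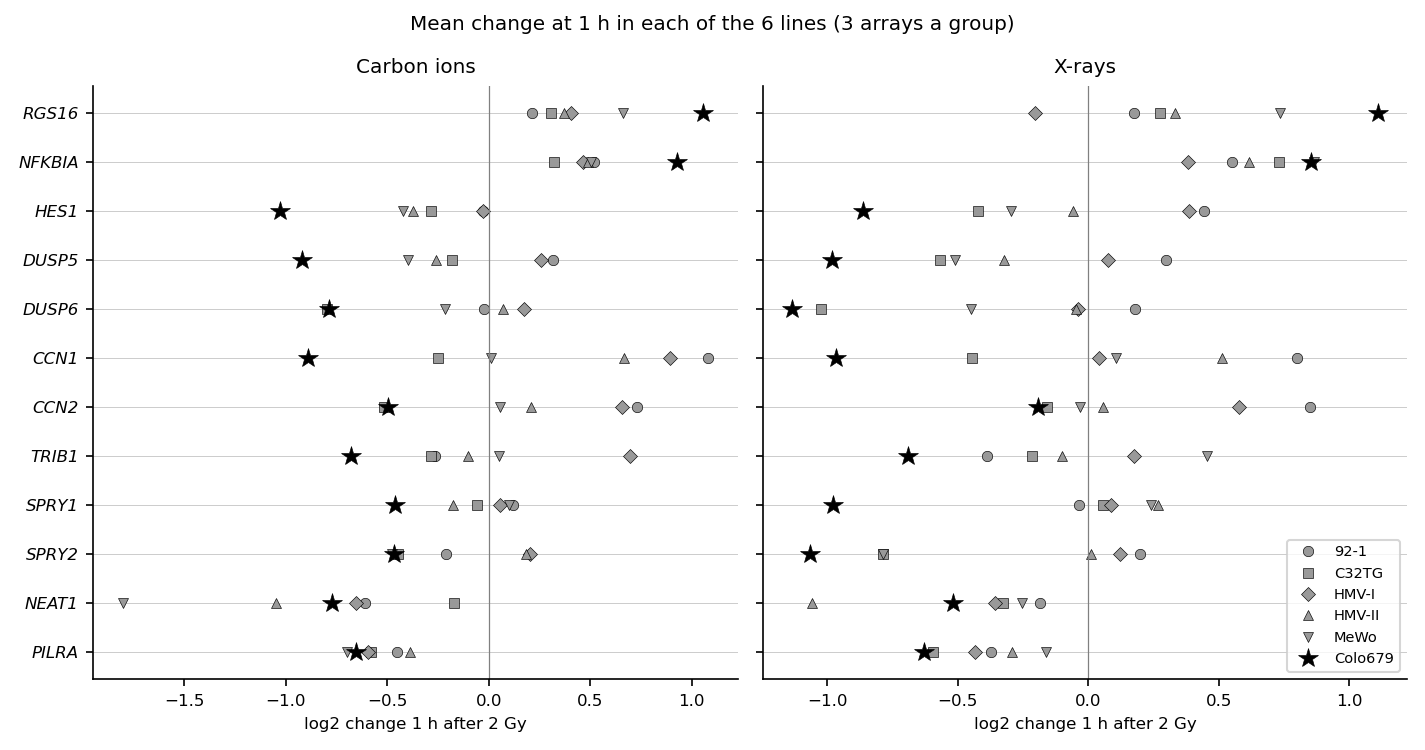
Mean log2 change at 1 h after carbon ions (left) and X-rays (right) of 12 genes in each of the 6 lines, with Colo679 as black stars and the other lines as grey symbols. The star is the lowest symbol for HES1, DUSP5, CCN1, TRIB1 and SPRY1 and the highest for RGS16 in both panels, and it lies among the other lines for NEAT1 and, after X-rays, for NFKBIA.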

How the data were processed

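Per the labels' protocols, total RNA was extracted with ISOGEN and RNeasy, labelled with biotin and hybridised to single-colour CodeLink whole human genome arrays. The deposited values are probe intensity on a linear scale, with 50.1% to 50.4% of the probes of each of the 12 arrays below 1 (missing values counted as low), as for scaling to the array median; which scanner software and background step were used is not given in the sources. Values were taken to log2 and quantile-normalised over all 108 arrays in limma 3.58.1 (R 4.3.3). Tested probes had a mean over the 12 arrays above the 40th percentile (-0.462) and at least 2 of 3 values in each of 4 groups, which left 32283 of 54359. Of all probes, 23472 carried 1 gene symbol, 905 several and 29982 none in the annotation given; a gene is its brightest tested probe with 1 symbol, and 23434 symbols matched RefSeq (GRCh38.p14) by Entrez identifier. A missing value was left out of its fit, not imputed.

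One linear model over the 4 groups (lmFit, eBayes with trend) gave each beam's change, the beam difference and the difference between unirradiated sets, with Benjamini-Hochberg adjustment over all tested probes. A second model over 72 arrays compared lines; its error is the spread between arrays, not between lines. With 3 arrays against 3, an exact permutation test cannot go below p = 0.1, so the models carry the tests, and the number of arrays limits the precision.

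The arrays, gene lists and tests were chosen with earlier results of these data known. Named per beam are up to 15 largest rises and 15 largest falls among genes called without overlap of arrays; shared genes; the 3 genes with the smallest p in each direction for the beam difference; up to 3 per direction between unirradiated sets and 5 per direction against the other lines; and list members. Alternatives were median centring, values as deposited, normalisation over 12 arrays, no filter, complete values only, 18 arrays of the line, a replicate block, no trend and leaving out each array or line. Replicate numbers were not treated as pairs.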

Additional observations from a re-analysis of the deposited data

Results flagged for a closer look

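Several differences passed a limma test of the difference itself. The one probe with a beam difference, probe 217041, differed by -1.14 on the log2 scale, carbon ions minus X-rays, and has no gene name here. It moved in opposite directions in the 2 sets, -0.33 after carbon ions (adjusted p = 0.096) and 0.81 after X-rays (adjusted p = 0.000785). Its call was lost with the replicate number as a block and when any one of 7 of the 12 arrays was left out.

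The changes of 31 of 13525 genes (0.229%) at 1 h after carbon ions differed between Colo679 and the mean of the other 5 lines. The 5 largest differences in each direction are given. FAM182B was higher by 0.74, SHISA5 by 0.68, RGS16 by 0.66, H4C4, a histone H4 gene, by 0.65 and CCT6A, a chaperonin subunit gene, by 0.63. CCN1 (-1.37), DUSP5 (-0.87), HES1 (-0.80), CCN2 (-0.72) and TRIB1 (-0.70) were lower. SHISA5 was not among the genes tested in Colo679 on its own. FAM182B and H4C4 had not passed in Colo679 on its own (0.59, limma adjusted p = 0.0583, and 0.43, adjusted p = 0.0865), and in CCT6A carbon-ion control array 1, at 1.21, lay below the other 2 controls at 1.86 and 2.05.

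After X-rays, RGS16 (0.85), KRTAP19-1, a hair keratin-associated protein gene (0.58), TXNIP (0.53), MRPL55 (0.51) and CSKMT (0.50) were higher than the mean of the other lines. CCN1 (-1.17), SPRY1 (-1.10), CEACAM5 (-0.90), HES1 (-0.87) and DUSP6 (-0.86) were lower. CEACAM5 had not passed in Colo679 alone after X-rays (-0.80, limma adjusted p = 0.124), and 1 of its 3 irradiated arrays lay near the controls.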

How the results depend on the processing

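Of 36 named carbon-ion calls and 30 named X-ray calls, 13 and 11 passed under all alternative settings run (19 or 20 a gene), RGS16, NFKBIA, HES1, DUSP5, CCN1, DUSP6 and TRIB1 among them after both beams. The other 23 and 19 missed the threshold under at least 1 setting (limma adjusted p up to 0.17 and 0.261), and none reversed. Leaving out single arrays moved the called probes over 68 to 632 after carbon ions, 52 to 1367 after X-rays, 24 to 143 for both, 0 to 174 for the beam difference, 2237 to 4320 between unirradiated sets, and 45 to 332 and 32 to 1170 for Colo679 against other lines after carbon ions and X-rays.

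With values as deposited, 827 probes passed after carbon ions, 3 for the beam difference, and 48 and 106 for the line differences. Rises then made up 12.2% of the carbon-ion calls against 26.6%, 60.4% between unirradiated sets against 43.5%, and 33.3% and 19.8% of the line differences against 80.9% and 33.2%, so the balance of rises and falls depends on the scaling. Median centring gave 3 for the beam difference and 20.6% rises for the X-ray line differences. With no filter on levels, 91 passed after X-rays and 36 after both. With 18 arrays, 2 passed for the beam difference. Without 92-1, 117 passed for the X-ray line difference, and without C32TG, 54 for the carbon-ion one. The causes were not tested.

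Arrays of the same number were not treated as pairs, and whether they were is not given by the labels. Over 18 pairs their deviations correlated with r from -0.239 to 0.163, 3 above 0.1, and 6 of 12 arrays correlated best with their own number. With the replicate number as a block, the called probes were 633, 146, 69, 0, 3487, 134 and 177 for carbon ions, X-rays, both, the beam difference, the unirradiated sets and the 2 line differences.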

Other observations

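Most probes called after carbon ions carry no gene name in the annotation given: 329 of 482, beside 14999 of 32283 tested. After X-rays 81 of 142 were unnamed, and 35 of the 56 called after both beams were. The named genes are therefore a minority of the response that the arrays recorded.

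Some large changes rested on 1 spot. AURKA, a mitotic kinase gene, had a fitted change of 2.14 after carbon ions (limma adjusted p = 0.357), from carbon-ion control array 1 at -0.74, where the other 11 arrays read between 5.29 and 6.02.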
